A study of Homo sapiens with 8 samples.

Results

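The genes described here are 57 genes of 4 guidance systems that tell growing axons and migrating cells where to go. They comprise 20 semaphorins with 9 plexins and 2 neuropilins as their receptors, 8 ephrins with 10 Eph receptors, and 2 netrins with 6 netrin receptors. They were taken by gene symbol out of 58217 genes with a matched transcript, and all 57 were among the 18201 genes tested. RNA was measured in oligodendrocyte progenitor cells (OPCs) differentiated from the established embryonic stem cell line H9 (human) and kept for 2 days on 1 of 3 coatings. Matrigel, a basement membrane extract of a mouse tumor, was the control and had 2 libraries here, labelled replicates 2 and 3. The study describes groups of equal size, so its Matrigel group was larger than the group available here. A Matrigel library labelled replicate 1 was not among the data used. VN, recombinant vitronectin, and VNP2, a peptide designed from vitronectin, had 3 libraries each. By the study's methods, its designed peptides were recombinant fusions with a mussel adhesive protein, immobilized on chemically activated vessels. On VNP2 the peptide thus came together with this carrier and attachment. All groups shared the parent line, the seeding density and the OPC medium, and SOX10, which the study overexpressed in other experiments to drive differentiation, was not overexpressed in these cells. All libraries thus came from a single line, and the labels do not say whether replicates were separate cultures, so the p-values measure the spread between these libraries, which may be technical.

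Semaphorins are secreted or membrane-bound ligands of the plexins, and most secreted class 3 members need a neuropilin as a co-receptor. Ephrins are membrane-bound ligands of the Eph receptor tyrosine kinases, signalling where cells touch, with A-type ephrins held by a lipid anchor and B-type ephrins spanning the membrane. Netrin 1, a secreted relative of the laminins, attracts axons through DCC and repels them when UNC5 receptors take part, and netrin 1 and class 3 semaphorins are known to direct OPC migration in the embryonic nervous system.

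Promoter stretches are printed for NRP2, SEMA3D and EPHA2, which were lower on both vitronectin coatings, and for EPHA3, which was higher on VNP2 alone, so that the letters in front of genes with opposite responses can be read side by side. They are RefSeq sequences of GRCh38.p14, limited to the bases before the RefSeq start site that lie in no exon of the gene in GENCODE v29, and 49 of the 57 genes had an entry in that promoter set. Each runs 5′ to 3′ on the strand of its gene, and capitals mark matches on either strand to GGGCGG (the Sp1 box), TGACGTCA (the cAMP response element), GGAATG (the TEAD motif) or TGANTCA (the AP-1 motif).
NRP2, chr2:205682251-205682499, plus strand, 249 bases: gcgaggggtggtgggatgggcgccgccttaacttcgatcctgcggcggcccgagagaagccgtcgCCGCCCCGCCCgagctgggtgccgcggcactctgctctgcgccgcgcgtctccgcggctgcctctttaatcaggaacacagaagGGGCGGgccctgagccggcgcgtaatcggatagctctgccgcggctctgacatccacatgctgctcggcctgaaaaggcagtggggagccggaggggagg
SEMA3D, chr7:85187057-85187306, minus strand, 250 bases: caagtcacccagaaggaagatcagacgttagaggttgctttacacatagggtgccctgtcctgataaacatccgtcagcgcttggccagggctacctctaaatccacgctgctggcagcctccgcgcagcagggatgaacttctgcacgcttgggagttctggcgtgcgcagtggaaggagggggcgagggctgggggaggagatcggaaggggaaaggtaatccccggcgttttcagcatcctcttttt
EPHA2, chr1:16156088-16156319, minus strand, 232 bases: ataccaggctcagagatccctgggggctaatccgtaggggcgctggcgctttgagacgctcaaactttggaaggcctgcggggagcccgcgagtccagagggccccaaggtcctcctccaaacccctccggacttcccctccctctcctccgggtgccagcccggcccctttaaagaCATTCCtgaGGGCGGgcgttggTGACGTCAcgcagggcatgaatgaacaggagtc
EPHA3, chr3:89107371-89107523, plus strand, 153 bases: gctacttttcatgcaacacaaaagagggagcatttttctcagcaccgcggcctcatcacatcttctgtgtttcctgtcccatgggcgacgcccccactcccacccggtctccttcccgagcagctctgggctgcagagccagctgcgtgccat
The EPHA2 and EPHA3 stretches end at the start of the gene in GENCODE, and the SEMA3D stretch ends 201 bases before it. The NRP2 stretch lies wholly inside the gene span, with 261 bases of that span before it, and so in an intron of an NRP2 transcript that starts further upstream. It held 3 Sp1 boxes, a pair of them sharing 1 base, and the EPHA2 stretch held 1 Sp1 box, 1 TEAD motif and 1 cAMP response element. None of the 4 motifs was found in the SEMA3D or EPHA3 stretch, and the AP-1 motif was found in none of the 4 stretches. Among 35116 RefSeq promoters, the 250 bases before the start held the Sp1 box in 42.6%, the TEAD motif in 11.9%, the AP-1 motif in 6.57% and the cAMP response element in 1.65%. These matches describe the letters only, and binding was not measured.

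The libraries held 37997896 to 39429453 estimated counts. The replicates of a group differed by more than sampling noise in every pair, and VN replicate 1 stood apart from the other 2 VN libraries, with a median chi-square per gene of 2.35 and 2.75 against 0.781 between those 2 (sampling alone gives 0.455). Of the OPC markers, OLIG1 (48.2 ± 0.86 on Matrigel to 66.9 ± 2.8 TPM on VNP2, mean ± SD), OLIG2, NKX2-2, PDGFRA and PTPRZ1 were present in every library, whereas SOX10 had 20 counts over all libraries and was not tested. TPM is a level per transcript length and is used here to compare genes with each other. All 6 OPC markers tested rose on VNP2 against Matrigel and 3 of them on VN, with summed levels of 215 to 217 TPM on Matrigel, 282 to 296 TPM on VN and 310 to 334 TPM on VNP2. PTPRZ1 made up the largest part of these sums, at 108 ± 2.7, 151 ± 8.2 and 178 ± 11 TPM. CSPG4 was the lowest of those tested, at 0.642 ± 0.1, 0.804 ± 0.063 and 1.06 ± 0.074 TPM. Of 5 pluripotent markers, 1 fell on VN, and 3 fell and 1 rose on VNP2 against Matrigel. The marker that fell on both, LIN28A, was at 56.3 ± 1.9, 40.5 ± 1.1 and 37.1 ± 1.1 TPM and fell by 0.56 and by 0.67 on the log2 scale, in the direction of NRP2 and EPHA2. POU5F1 (4.96 ± 0.16, 6.45 ± 0.75 and 2.16 ± 0.56 TPM) and TDGF1 (1.39 ± 0.19, 2.86 ± 0.46 and 0.527 ± 0.26 TPM) instead had their highest mean on VN. DPPA4 was highest on VNP2, at 31.0 ± 1.3, 33.3 ± 1.7 and 36.9 ± 0.48 TPM, and NANOG was below 1 TPM in every library. The summed level of the 5 was 91.4 to 96.3 TPM on Matrigel, 82.6 to 84.3 TPM on VN and 75.8 to 79 TPM on VNP2, and the part of either list in the changes of the guidance genes was not tested. Neuron and mesenchymal transcripts were also present, with summed levels of 829 to 1025 TPM for 10 neuron markers and 501 to 616 TPM for 8 mesenchymal markers. In such bulk RNA, fewer cells of a type and less RNA per cell cannot be told apart.

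The levels of the guidance genes spanned a wide range. NTN1 was the most abundant in each group, at 167 ± 0.13 TPM (SD, n = 2) on Matrigel, 144 ± 4.1 TPM (SD, n = 3) on VN and 212 ± 1.5 TPM (SD, n = 3) on VNP2. SEMA3G, a secreted semaphorin, was the lowest by its mean over all libraries, at 0.163 ± 0.016 TPM on Matrigel. Among the receptors, EPHA2, PLXNB2, NEO1, PLXNB1 and EPHA4 had the highest means over all libraries, in that order, NRP2 was second to EPHA2 on Matrigel alone, and PLXNB3 and EPHA5 were below 1 TPM in every library. The plexins as a family kept nearly the same summed level, 204 to 208 TPM on Matrigel, 203 to 214 TPM on VN and 209 to 217 TPM on VNP2. The summed level of both neuropilins was 97.2 to 97.7 TPM on Matrigel, 61.9 to 65.1 TPM on VN and 57.1 to 62.9 TPM on VNP2, so the Matrigel libraries lay above all others.

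**Figure D1:**
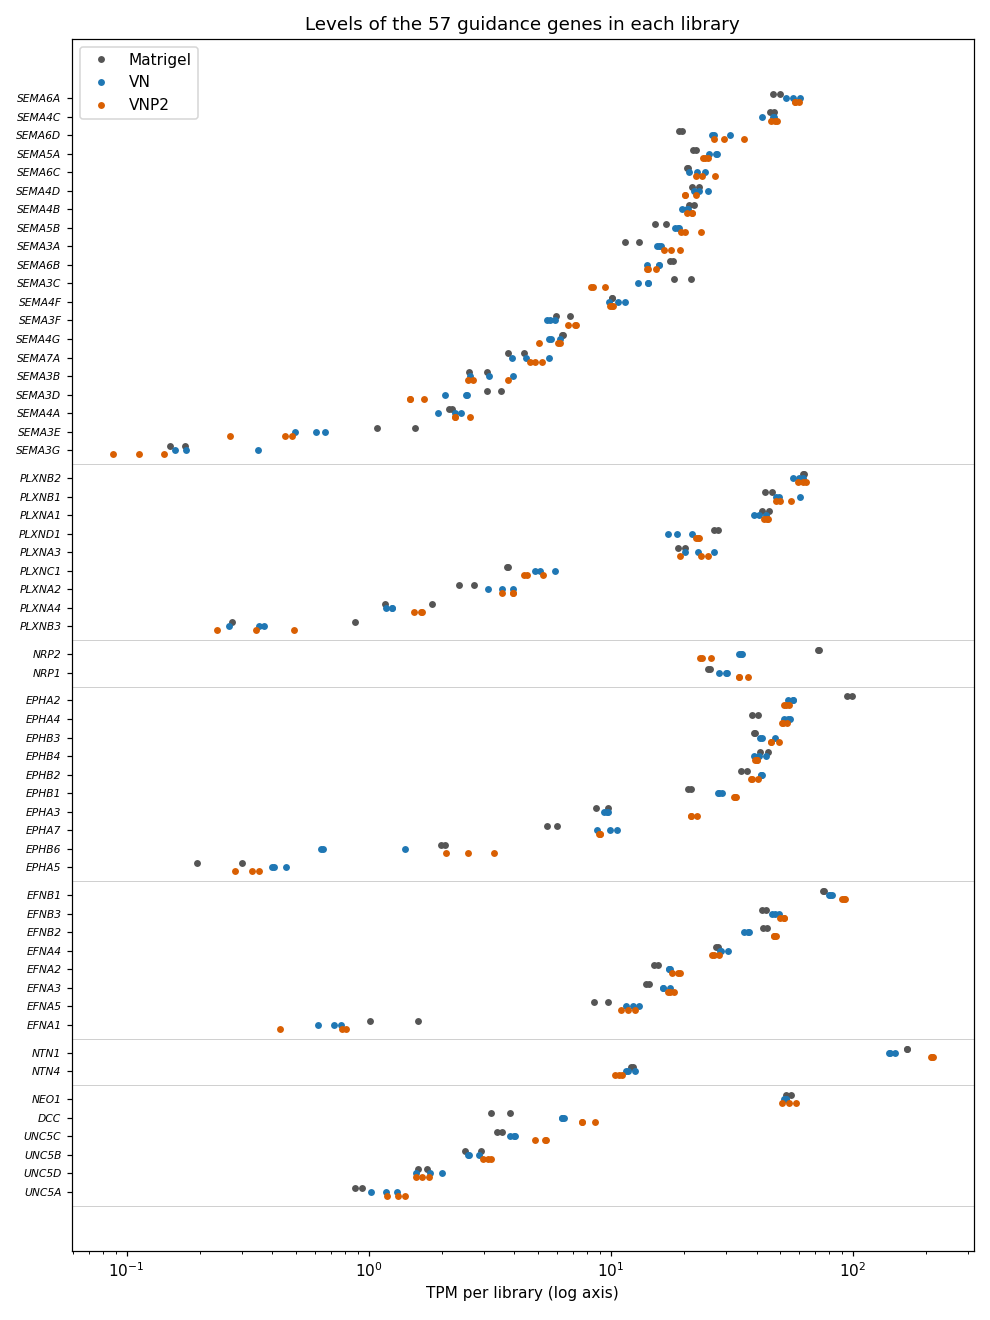
Level of each of the 57 guidance genes in TPM (log axis), 1 point per library, with Matrigel in grey, VN in blue and VNP2 in orange, and the families separated by lines. NTN1 sits to the right of every other gene, while NRP2 and EPHA2 show Matrigel points well apart from the others and EPHA3 shows VNP2 points apart.

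The coatings were compared in 3 pairs with edgeR's quasi-likelihood test, and the threshold for a call was an adjusted p of 0.05 over all genes tested. On VN against Matrigel, 21 of the 57 guidance genes were called, 11 higher and 10 lower, against 15.3% of all genes tested (5.66% higher and 9.6% lower). On VNP2 against Matrigel, 26 were called, 18 higher and 8 lower, against 16.6% of all genes (7.44% higher and 9.13% lower). On VNP2 against VN, 13 were called, 10 higher and 3 lower, against 5.1% of all genes (3.09% higher and 2.01% lower). These shares of all genes are also the background for the counts of called genes in each family, class and marker list of this report. The first 2 comparisons share the Matrigel libraries, and VNP2 against VN shares libraries with each of them, so the 3 comparisons are not independent. The median log2 fold change of the guidance genes was 0.01, 0.08 and 0.08 in that order, against 0.0044, 0.0024 and 0.00073 for all genes tested. A test across the 3 coatings called 29 of the 57, against 19.3% of all genes. These counts include EPHB6, whose values are uncertain for a reason given with it, and without it 20, 26, 12 and 28 were called.

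The changes were mostly moderate. A change of at least 1.5-fold was called for 7 guidance genes on VN against Matrigel (3.65% of all genes tested), for 9 on VNP2 against Matrigel (5.41%) and for 4 on VNP2 against VN (1.6%), or 6, 9 and 3 without EPHB6. Libraries of the 2 groups did not overlap for 39, 42 and 25 guidance genes, where 44.4%, 48.1% and 23.6% of all genes did not overlap. The counts of called genes rest partly on single libraries: without Matrigel replicate 3, only 12 guidance genes were called on VN against Matrigel. Without VN replicate 1, the library that stood apart, 26, 28 and 15 were called in the 3 comparisons. Leaving out a library alters the power for every gene, and the shares of all genes called in these fits are not given here.

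**Figure D2:**
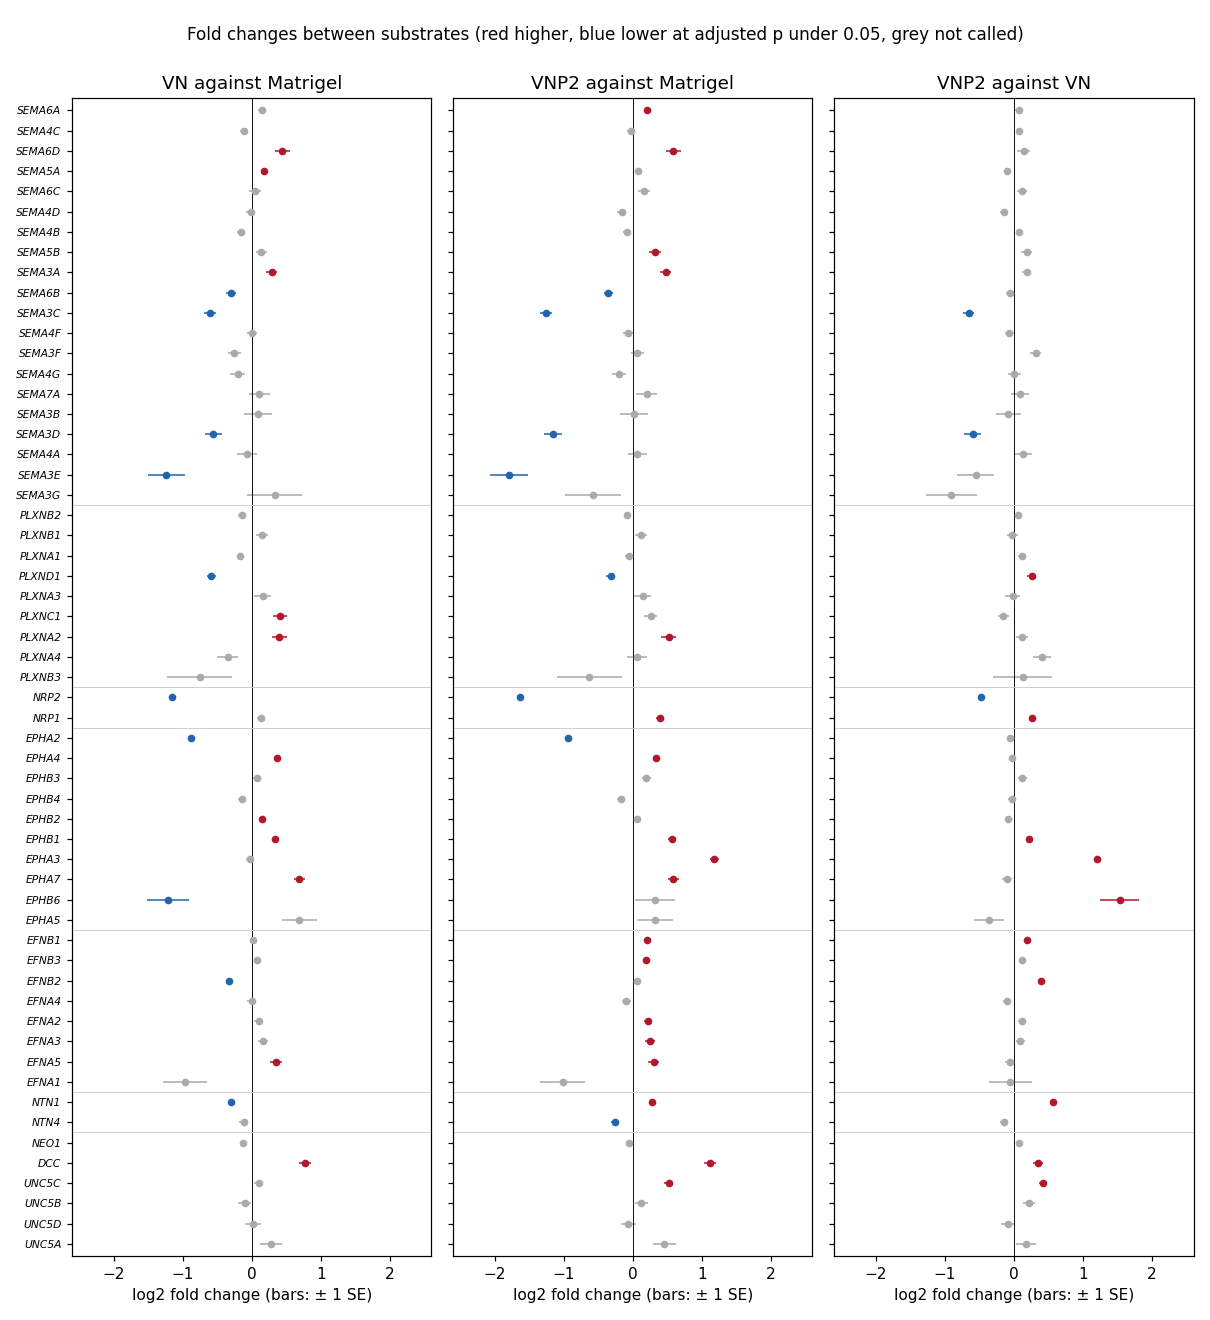
Log2 fold change of each guidance gene for VN against Matrigel, VNP2 against Matrigel and VNP2 against VN, with bars of 1 SE, red for higher, blue for lower and grey for not called. NRP2 (-1.15, -1.63 and -0.48) and SEMA3C (-0.60, -1.26 and -0.65) lie to the left in all 3 panels, and EPHA3 lies to the right in the 2 panels with VNP2 (1.18 and 1.21).

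The class 3 semaphorins, the secreted ligands, changed in both directions. Of 7 tested, 1 rose and 3 fell on VN and likewise on VNP2 against Matrigel, and 2 fell on VNP2 against VN. SEMA3C, which signals through both neuropilins and is known for its part in cardiovascular development, fell in all 3 comparisons. It had 1386 and 1605 normalized counts in the Matrigel libraries, 1036, 1004 and 917 in the VN libraries and 609, 679 and 592 in the VNP2 libraries, where normalized counts are scaled to libraries of equal size. No library of one coating overlapped with those of another. SEMA3C fell on VN against Matrigel (log2 fold change -0.60 ± 0.084, adjusted p = 9.37e-04, with errors of fold changes given as SE throughout), on VNP2 against Matrigel (log2 fold change -1.26 ± 0.086, adjusted p = 4.35e-06) and on VNP2 against VN (log2 fold change -0.65 ± 0.08, adjusted p = 9.36e-04).

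SEMA3D, another secreted ligand of the same class, followed the same order at a lower level, with 276 and 313 normalized counts in the Matrigel libraries, 177, 211 and 213 in the VN libraries and 144, 126 and 126 in the VNP2 libraries. The coatings again did not overlap. It fell on VN (log2 fold change -0.56 ± 0.12, adjusted p = 0.013) and on VNP2 (log2 fold change -1.16 ± 0.13, adjusted p = 1.28e-04) against Matrigel, and on VNP2 against VN (log2 fold change -0.60 ± 0.12, adjusted p = 0.015). The call on VN against Matrigel was lost without Matrigel replicate 3 (adjusted p = 0.121), and that on VNP2 against VN without VN replicate 2, VN replicate 3, VNP2 replicate 2 or VNP2 replicate 3, each left out alone (adjusted p = 0.0606 to 0.062). Both were also lost by limma on log2 TPM (adjusted p = 0.0509 and 0.0505), where the change on VN was -0.35. Over all 17 alternatives these adjusted p-values ranged from 0.00767 to 0.121 and from 0.00528 to 0.062.

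SEMA3E, which binds PLXND1 directly without a neuropilin, was scarce and is named after its values were seen, since its mean count was under 100. It had 154 and 106 normalized counts in the Matrigel libraries, 63.3, 56.3 and 45.6 in the VN libraries and 46.4, 42.6 and 24.9 in the VNP2 libraries. Both Matrigel libraries lay above all others, and the VN and VNP2 libraries overlapped. It fell on VN (log2 fold change -1.24 ± 0.27, adjusted p = 0.0117) and on VNP2 (log2 fold change -1.79 ± 0.28, adjusted p = 0.00136) against Matrigel. The call on VN was lost without Matrigel replicate 2 (adjusted p = 0.125, over 16 alternatives 6.45e-04 to 0.125). By limma on log2 TPM, with a pseudocount of 1, the changes were -0.54 and -0.72.

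SEMA3A, the classical repellent of sensory axons acting through NRP1, moved the other way. It had 1331 and 1518 normalized counts in the Matrigel libraries, 1763, 1754 and 1691 in the VN libraries and 1965, 1839 and 2134 in the VNP2 libraries. Every VN and VNP2 library was above both Matrigel libraries. It rose on VN (log2 fold change 0.29 ± 0.074, adjusted p = 0.0264) and on VNP2 (log2 fold change 0.47 ± 0.074, adjusted p = 0.00147), and the call on VN was lost without Matrigel replicate 2 (adjusted p = 0.225) or without VN replicate 2 (adjusted p = 0.0665), with adjusted p over 17 alternatives from 0.00397 to 0.225. Per transcript length, SEMA3A made up 26.6 ± 0.82% of the class 3 TPM on Matrigel (SD, n = 2), 37.9 ± 0.23% on VN and 46.2 ± 3.6% on VNP2 (SD, n = 3 each), while SEMA3C made up 43.0 ± 1.8%, 33.2 ± 1.5% and 22.5 ± 1.5%. SEMA3C was thus the leading class 3 ligand on Matrigel, and SEMA3A on VN and VNP2. These shares were not tested.

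SEMA3F, the main ligand of NRP2 in repulsion, was called only in the test across the 3 coatings (adjusted p = 0.0411 by edgeR's quasi-likelihood test). It had 430.1 and 376 normalized counts in the Matrigel libraries, 358, 332 and 323 in the VN libraries and 434, 429 and 400.2 in the VNP2 libraries. The VN libraries were the lowest and did not overlap with either other group. No pair passed the test, VN against Matrigel (log2 fold change -0.25 ± 0.091, adjusted p = 0.0911) and VNP2 against VN (log2 fold change 0.32 ± 0.081, adjusted p = 0.0518) included. The call across the coatings was lost on leaving out any single library other than Matrigel replicate 3 or VN replicate 1, with adjusted p of 0.0602 to 0.131, and also without a filter on low counts, by DESeq2 and by limma on log2 TPM (adjusted p = 0.0509, 0.0685 and 0.0808). SEMA3B and SEMA3G were called in no test.

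Of the 13 semaphorins that are membrane-bound or anchored, 2 rose and 1 fell on VN, 3 rose and 1 fell on VNP2 against Matrigel, and none was called on VNP2 against VN by edgeR. SEMA6D, a transmembrane semaphorin that binds PLXNA1, rose on both, with 1959.9 and 1989.5 normalized counts in the Matrigel libraries, 2573, 2959.8 and 2536 in the VN libraries and 2606, 2845 and 3449.8 in the VNP2 libraries. Its Matrigel libraries lay below all others. It rose on VN (log2 fold change 0.44 ± 0.11, adjusted p = 0.0196) and on VNP2 (log2 fold change 0.59 ± 0.11, adjusted p = 0.00391). On VN the call was lost without Matrigel replicate 2 (adjusted p = 0.119), Matrigel replicate 3 (adjusted p = 0.104) or VN replicate 2 (adjusted p = 0.0591), with adjusted p over 17 alternatives from 1.88e-04 to 0.119.

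The other calls in these classes were small. SEMA6A and SEMA5B were higher on VNP2 than on Matrigel, by 0.21 and 0.32 on the log2 scale, and SEMA5A was higher on VN by 0.18. SEMA6B was lower on both, by -0.30 and -0.35. Each of these calls was lost on leaving out Matrigel replicate 3, with an adjusted p of 0.185, 0.202, 0.12, 0.114 and 0.0597 in the order given. All SEMA4 genes, SEMA6C and SEMA7A were called in no test.

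Of the neuropilins, the co-receptors, NRP2 (ENSG00000118257, chr2:205681990-205798133, GRCh38) had the lowest adjusted p of the 57 genes in both comparisons with Matrigel. It had 8731 and 8561 normalized counts in the Matrigel libraries, 3919, 3902 and 3852 in the VN libraries and 2982, 2669 and 2708 in the VNP2 libraries. The libraries of a coating lay close together and the coatings far apart. NRP2 was 2.22-fold lower on VN (log2 fold change -1.15 ± 0.047, adjusted p = 2.04e-07) and 3.1-fold lower on VNP2 (log2 fold change -1.63 ± 0.047, adjusted p = 1.58e-08) than on Matrigel, and 1.4-fold lower on VNP2 than on VN (log2 fold change -0.48 ± 0.044, adjusted p = 1.74e-04). All 3 calls were kept under every alternative run. The transcript that held most of the gene's TPM, NRP2-204, took 50.2 to 55.7% of it in every library, so its share varied little beside the fall of the whole gene.

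NRP1, the co-receptor of SEMA3A, was not lower on either vitronectin coating. It had 2983 and 3018 normalized counts in the Matrigel libraries, 3179.7, 3358 and 3307 in the VN libraries and 4185, 3817 and 3797 in the VNP2 libraries. The VNP2 libraries lay above all others. NRP1 rose on VNP2 against Matrigel (log2 fold change 0.39 ± 0.051, adjusted p = 4.39e-04) and against VN (log2 fold change 0.26 ± 0.045, adjusted p = 0.00761), and was not called on VN against Matrigel (log2 fold change 0.13 ± 0.051, adjusted p = 0.117). Per transcript length, the ratio of NRP2 to NRP1 was 2.84 ± 0.064 on Matrigel (SD, n = 2), 1.17 ± 0.039 on VN and 0.699 ± 0.0078 on VNP2 (SD, n = 3 each). NRP2 was thus the more abundant neuropilin on Matrigel and on VN, and NRP1 on VNP2, in every library.

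Of the 9 plexins, the signalling receptors, 2 rose and 1 fell on VN, 1 rose and 1 fell on VNP2 against Matrigel, and 1 rose on VNP2 against VN. PLXND1, the receptor of SEMA3E, had 3192 and 3064 normalized counts in the Matrigel libraries, 1913, 2334 and 2024 in the VN libraries and 2525, 2531 and 2449.5 in the VNP2 libraries. The groups did not overlap, with VN lowest and Matrigel highest. PLXND1 fell on VN (log2 fold change -0.58 ± 0.071, adjusted p = 3.90e-04) and less on VNP2 (log2 fold change -0.32 ± 0.071, adjusted p = 0.0106) against Matrigel. The call on VNP2 against Matrigel was lost without Matrigel replicate 2 (adjusted p = 0.0999) and by limma on log2 TPM (adjusted p = 0.0774), with adjusted p over 17 alternatives from 4.27e-04 to 0.0999. The rise on VNP2 against VN (log2 fold change 0.26 ± 0.065, adjusted p = 0.0456) was lost in 9 of 17 alternatives, among them leaving out any single library other than VN replicate 2, with adjusted p from 5.30e-04 to 0.153, and was 0.42 without the length offset.

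PLXNA2, a receptor of class 3 and class 6 semaphorins, had 679 and 583 normalized counts in the Matrigel libraries, 852, 727 and 921 in the VN libraries and 845, 934 and 932 in the VNP2 libraries, with both Matrigel libraries lowest. It rose on VN (log2 fold change 0.40 ± 0.11, adjusted p = 0.029) and on VNP2 (log2 fold change 0.52 ± 0.11, adjusted p = 0.00692), and without Matrigel replicate 3 neither call was kept (adjusted p = 0.225 and 0.0902). The call on VN was also lost without VN replicate 3 (adjusted p = 0.0867), by limma on log2 TPM (adjusted p = 0.0524) and in a fit of that pair alone (adjusted p = 0.0548), and was 0.24 without the length offset. The adjusted p ranged from 0.00411 to 0.225 for VN and from 1.39e-04 to 0.0902 for VNP2 over 17 alternatives. PLXNC1, the receptor of SEMA7A, had 557 and 559 normalized counts in the Matrigel libraries, 696, 817 and 710.0 in the VN libraries and 622, 637 and 742 in the VNP2 libraries. It rose on VN (log2 fold change 0.41 ± 0.097, adjusted p = 0.0181), a call lost without Matrigel replicate 2 (adjusted p = 0.106), Matrigel replicate 3 (adjusted p = 0.102) or VN replicate 2 (adjusted p = 0.0506), with adjusted p over 17 alternatives from 0.00353 to 0.106. PLXNA1, PLXNA3, PLXNA4 and the 3 PLXNB genes were called in no test.

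**Figure D3:**
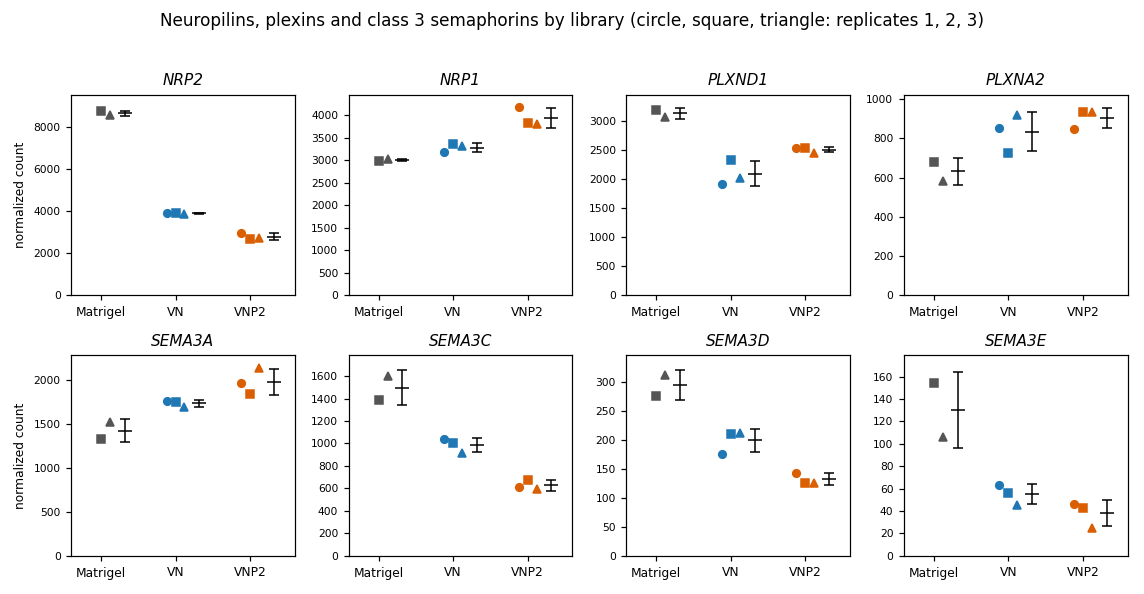
Normalized counts of both neuropilins, 2 plexins and 4 class 3 semaphorins in each library, with mean and SD of each group beside the points and axes starting at 0. NRP2 drops from 8561 or more on Matrigel to at most 3919 on VN and 2982 on VNP2, SEMA3C and SEMA3D step down in the same order, and NRP1 and SEMA3A have their highest values on VNP2.

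Endothelial markers are given beside these genes because NRP2, PLXND1 and SEMA3E are also known from blood and lymph vessels. Of 7 markers, 5 were tested, and 2 fell on VN and 3 on VNP2 against Matrigel. TEK and CDH5 fell on both and FLT1 on VNP2. TEK had mean levels of 3.2 ± 0.37 TPM (Matrigel), 1.7 ± 0.21 TPM (VN) and 1.31 ± 0.18 TPM (VNP2), while CDH5 and FLT1 were below 1 TPM in every library. KDR and CLDN5 were not called, and PECAM1 and VWF were too low to be tested. The summed level of the 7 was 20.2 to 21.6 TPM on Matrigel, 21.97 to 25.1 TPM on VN and 21.5 to 22.6 TPM on VNP2. Most of this sum came from KDR and CLDN5, so it says little about the markers that fell. Mesenchymal markers moved both ways: of 8, 3 rose and 2 fell on VN and 5 rose and 2 fell on VNP2 against Matrigel. COL1A1 fell as NRP2 did, from 159 ± 12 to 116 ± 8.2 and 63.1 ± 1.9 TPM. COL1A2 (42.5 ± 0.48, 56.5 ± 0.66 and 54.5 ± 0.56 TPM) and LUM (101 ± 0.37, 160 ± 20 and 131 ± 12 TPM) instead had their lowest mean on Matrigel. The part of either cell type in these results was not tested.

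The ephrins, the membrane-bound ligands, had no called change of 1.5-fold or more. Of 8, 1 rose and 1 fell on VN, 5 rose and none fell on VNP2 against Matrigel, and 2 rose on VNP2 against VN, by edgeR's quasi-likelihood test. EFNB2, a ligand of the EphB receptors and EPHA4, was lowest on VN, with 4230.5 and 4338 normalized counts in the Matrigel libraries, 3388, 3439 and 3418 in the VN libraries and 4556, 4448 and 4436 in the VNP2 libraries. The 3 coatings did not overlap. EFNB2 fell on VN against Matrigel (log2 fold change -0.33 ± 0.036, adjusted p = 1.85e-04), rose on VNP2 against VN (log2 fold change 0.39 ± 0.032, adjusted p = 9.15e-05), and was not called on VNP2 against Matrigel (95% interval of the log2 fold change -0.015 to 0.14). Both calls were kept under all 17 alternatives.

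EFNB1, the most abundant ephrin by TPM, had 5493 and 5494 normalized counts in the Matrigel libraries, 5755, 5459.8 and 5399 in the VN libraries and 6449, 6374 and 6217 in the VNP2 libraries, with the VNP2 libraries above all others. It rose on VNP2 against Matrigel (log2 fold change 0.21 ± 0.039, adjusted p = 0.00448) and against VN (log2 fold change 0.20 ± 0.035, adjusted p = 0.00907). Together the 3 B-type ephrins amounted to 162 TPM in both Matrigel libraries, 164 to 166 TPM on VN and 187 to 193 TPM on VNP2. EFNB3 rose on VNP2 against Matrigel by 0.18 on the log2 scale, a call lost without Matrigel replicate 3 (adjusted p = 0.144).

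Among the A-type ephrins, EFNA5, which binds EPHA3, EPHA4 and EPHA7 among others, rose on both coatings. It had 889 and 768 normalized counts in the Matrigel libraries, 1081, 979.6 and 1109 in the VN libraries and 1019, 956 and 1082 in the VNP2 libraries, with both Matrigel libraries lowest, and the change was log2 fold change 0.35 ± 0.086, adjusted p = 0.0203 on VN and log2 fold change 0.30 ± 0.085, adjusted p = 0.0371 on VNP2. Without Matrigel replicate 3 neither call was kept (adjusted p = 0.19 and 0.294), and single calls were also lost without VN replicate 3, VNP2 replicate 1 or VNP2 replicate 3, so that adjusted p over 17 alternatives was 0.00352 to 0.19 in the first comparison and 0.00102 to 0.294 in the second. EFNA2 and EFNA3 passed on VNP2 against Matrigel with adjusted p of 0.037 and 0.0397, but lost the call in 8 and 9 of 17 alternatives. EFNA1 and EFNA4 were called in no test. EFNA1 was scarce and is named after its values were seen. Its log2 fold changes against Matrigel were -0.97 ± 0.32 on VN and -1.02 ± 0.32 on VNP2. The adjusted p by edgeR's quasi-likelihood test was 0.0698 and 0.0568, and both Matrigel libraries lay above all others.

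Of the 10 Eph receptors, 4 rose and 2 fell on VN against Matrigel, 4 rose and 1 fell on VNP2 against Matrigel, and 3 rose on VNP2 against VN. Without EPHB6, 1 fell on VN and 2 rose on VNP2 against VN. EPHA2 (ENSG00000142627, chr1:16124337-16156087, GRCh38), best known from epithelial cells, was the most abundant A-type receptor by its mean TPM on each coating. It had 8771 and 9141 normalized counts in the Matrigel libraries, 5048, 4677 and 4902 in the VN libraries and 4802, 4568 and 4633 in the VNP2 libraries. Both Matrigel libraries lay far above all others, and the VN and VNP2 libraries overlapped. EPHA2 fell on VN (log2 fold change -0.88 ± 0.042, adjusted p = 6.01e-07) and on VNP2 (log2 fold change -0.94 ± 0.042, adjusted p = 2.50e-07) against Matrigel, and between VNP2 and VN the 95% interval of its log2 fold change was -0.15 to 0.024. Its calls were kept under all 17 alternatives.

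EPHA3 (ENSG00000044524, chr3:89107524-89482134, GRCh38), a receptor for EFNA5, was higher on VNP2, with no detectable difference between VN and Matrigel. It had 996 and 1113 normalized counts in the Matrigel libraries, 1028, 1043 and 1036 in the VN libraries and 2349, 2347 and 2484 in the VNP2 libraries. The VN libraries lay within the range of Matrigel, and all 3 VNP2 libraries lay far above both groups. EPHA3 rose on VNP2 against Matrigel (log2 fold change 1.18 ± 0.06, adjusted p = 5.29e-07) and against VN (log2 fold change 1.21 ± 0.052, adjusted p = 2.75e-06), while the 95% interval on VN against Matrigel was -0.16 to 0.11. Its transcript EPHA3-201 held 97.4 to 99.6% of its TPM in every library, and its calls were kept under all 17 alternatives.

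EPHA4, which binds ephrins of both types, and EPHA7 rose on both vitronectin coatings. EPHA4 had 4339.9 and 4537 normalized counts in the Matrigel libraries, 5621, 5682 and 5781 in the VN libraries and 5548, 5753 and 5476 in the VNP2 libraries, and EPHA7 had 707 and 636 normalized counts in the Matrigel libraries, 988, 1166 and 1083 in the VN libraries and 1005, 1011 and 1009.9 in the VNP2 libraries. In both genes the Matrigel libraries lay below all others, and the VN and VNP2 libraries overlapped. EPHA4 rose on VN (log2 fold change 0.36 ± 0.039, adjusted p = 1.75e-04) and on VNP2 (log2 fold change 0.33 ± 0.039, adjusted p = 2.09e-04). EPHA7 rose on VN (log2 fold change 0.68 ± 0.079, adjusted p = 2.63e-04) and on VNP2 (log2 fold change 0.59 ± 0.079, adjusted p = 5.53e-04). Neither gene was called on VNP2 against VN, with 95% intervals of -0.10 to 0.05 and -0.25 to 0.053.

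The A-type receptors together amounted to 148 to 155 TPM on Matrigel, 127 to 132 TPM on VN and 136 to 137 TPM on VNP2. EPHA2 took 64.0 ± 0.055% of that sum on Matrigel (SD, n = 2), 43.3 ± 1.3% on VN and 38.9 ± 0.87% on VNP2 (SD, n = 3 each). EPHA4 took 26.0 ± 0.084%, 41.4 ± 0.57% and 38.2 ± 0.96%, and EPHA3 took 6.07 ± 0.31%, 7.41 ± 0.12% and 16.1 ± 0.6%. The make-up of the A-type receptors thus differed between the coatings more than their sum did, and these shares were not tested.

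Among the B-type receptors, EPHB1, a receptor of the B-type ephrins, rose in all 3 comparisons. It had 2437 and 2353 normalized counts in the Matrigel libraries, 3148, 2955 and 2959.6 in the VN libraries and 3582, 3490.3 and 3524 in the VNP2 libraries. The 3 coatings did not overlap, with the order Matrigel, VN, VNP2. EPHB1 rose on VN (log2 fold change 0.33 ± 0.044, adjusted p = 6.71e-04) and on VNP2 (log2 fold change 0.56 ± 0.044, adjusted p = 1.30e-05) against Matrigel and on VNP2 against VN (log2 fold change 0.23 ± 0.039, adjusted p = 0.00761), all kept under 17 alternatives. EPHB2 was higher on VN against Matrigel by 0.15 on the log2 scale, a call lost in 8 of 17 alternatives, without Matrigel replicate 2, Matrigel replicate 3, VN replicate 2, VN replicate 3 or VNP2 replicate 1 among them, with adjusted p from 0.0101 to 0.257. EPHB3, EPHB4 and EPHA5 were called in no test.

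EPHB6, a receptor without kinase activity, is uncertain. The transcripts of EPHB6 matched here held a share of 0.351 of its counts in the authors' gene table, while 56 of the 57 genes came within 5% of theirs. The matched counts fell on VN against Matrigel (log2 fold change -1.21 ± 0.31, adjusted p = 0.0236) and rose on VNP2 against VN (log2 fold change 1.53 ± 0.28, adjusted p = 0.0108). In the authors' normalized counts, the Matrigel mean was 345, the VN mean 332 and the VNP2 mean 398, and limma on those values called neither comparison (adjusted p = 0.806 and 0.215). Setting EPHB6 beside that table was decided after the data were seen.

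**Figure D4:**
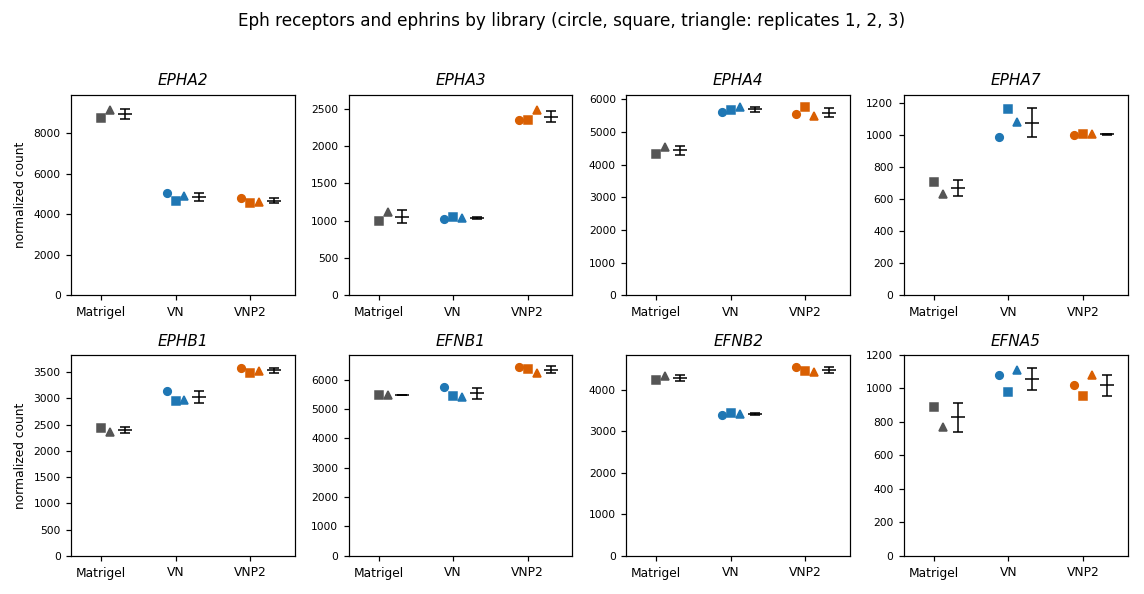
Normalized counts of 5 Eph receptors and 3 ephrins in each library, with mean and SD of each group beside the points and axes starting at 0. EPHA2 is at 8771 or more on Matrigel and at most 5048 elsewhere, EPHA3 is at 2347 or more on VNP2 and at most 1113 elsewhere, and EFNB2 is lowest on VN.

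The netrin system was changed in its main ligand and in 2 receptors. NTN1 (ENSG00000065320, chr17:9021542-9244000, GRCh38), the secreted attractant made by the floor plate, had 21950.3 and 21820.3 normalized counts in the Matrigel libraries, 18732, 17302 and 17414 in the VN libraries and 26369, 26558 and 26548 in the VNP2 libraries. The coatings did not overlap, with VN lowest and VNP2 highest. NTN1 fell on VN against Matrigel (log2 fold change -0.30 ± 0.037, adjusted p = 4.90e-04), rose on VNP2 against Matrigel (log2 fold change 0.28 ± 0.038, adjusted p = 6.16e-04) and rose on VNP2 against VN (log2 fold change 0.57 ± 0.034, adjusted p = 1.36e-05). It was the only one of the 57 genes called lower on VN and higher on VNP2 against Matrigel, and the 3 calls were kept under all 17 alternatives. NTN4, a netrin of basement membranes, was lower on VNP2 than on Matrigel (log2 fold change -0.26 ± 0.062, adjusted p = 0.0176), a call lost without Matrigel replicate 2 (adjusted p = 0.0895), Matrigel replicate 3 (adjusted p = 0.119) or VNP2 replicate 1 (adjusted p = 0.0597) and by limma on log2 TPM (adjusted p = 0.102), with adjusted p over 17 alternatives from 0.013 to 0.119.

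DCC (ENSG00000187323, chr18:52340172-53535903, GRCh38), the receptor for attraction, rose in all 3 comparisons. It had 623 and 738 normalized counts in the Matrigel libraries, 1193, 1146 and 1136 in the VN libraries and 1412, 1413 and 1589 in the VNP2 libraries. The coatings did not overlap. DCC rose on VN (log2 fold change 0.77 ± 0.084, adjusted p = 1.79e-04) and on VNP2 (log2 fold change 1.12 ± 0.084, adjusted p = 8.60e-06) against Matrigel, both kept under 17 alternatives, and on VNP2 against VN (log2 fold change 0.35 ± 0.07, adjusted p = 0.0184). The last call was lost without VN replicate 2 (adjusted p = 0.0652), VN replicate 3 (adjusted p = 0.0752) or VNP2 replicate 3 (adjusted p = 0.0745) and by limma on log2 TPM (adjusted p = 0.0998), with adjusted p over 17 alternatives from 9.37e-04 to 0.0998. Per transcript length there was far more NTN1 than DCC: the ratio of NTN1 to DCC was 48.0 ± 6.0 on Matrigel (SD, n = 2), 22.8 ± 0.44 on VN and 26.7 ± 1.7 on VNP2 (SD, n = 3 each). This ratio leaves out the other netrin receptors, among them NEO1, at 54.0 TPM on Matrigel beside 167 TPM of NTN1.

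UNC5C, a receptor for repulsion, had 545 and 569.6 normalized counts in the Matrigel libraries, 593, 596 and 602 in the VN libraries and 749, 825 and 821 in the VNP2 libraries. Matrigel and VN lay close together and the VNP2 libraries above them. UNC5C rose on VNP2 against Matrigel (log2 fold change 0.52 ± 0.068, adjusted p = 4.69e-04) and against VN (log2 fold change 0.42 ± 0.06, adjusted p = 0.0026), both kept under 17 alternatives, and was not called on VN against Matrigel (95% interval -0.054 to 0.25). NEO1, the DCC relative, was the most abundant netrin receptor at 54 ± 1.9, 52.6 ± 0.45 and 54.7 ± 3.6 TPM, and was called in no test. UNC5A, UNC5B and UNC5D were not called either.

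**Figure D5:**
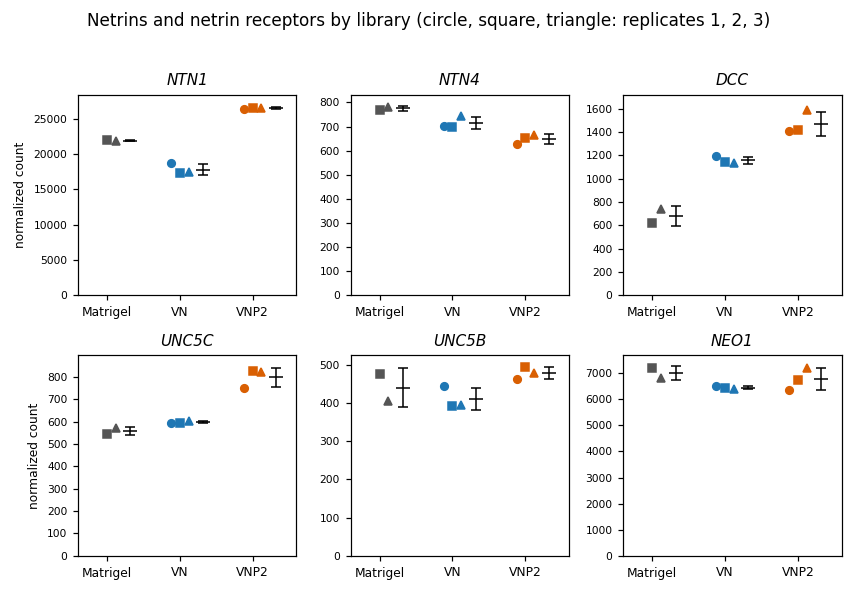
Normalized counts of 2 netrins and 4 netrin receptors in each library, with mean and SD of each group beside the points and axes starting at 0. NTN1 is lowest on VN (at most 18732) and highest on VNP2 (26369 or more), DCC steps up from Matrigel to VN to VNP2, and UNC5C is raised on VNP2.

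Floor plate markers are given beside NTN1. Of 6, 5 were tested, and 1 rose and 2 fell on VN, 3 rose and 1 fell on VNP2 against Matrigel, and 1 rose on VNP2 against VN. CORIN had the same order as NTN1, at 3.06 ± 0.17 TPM on Matrigel, 1.83 ± 0.24 on VN and 4.91 ± 0.66 on VNP2. SHH had another order, at 20.9 ± 0.35, 15.6 ± 0.1 and 14.2 ± 0.85 TPM, and FOXA2 was not called. The summed level of the 6 was 282 to 290 TPM on Matrigel, 309 to 327 TPM on VN and 322 to 339 TPM on VNP2. Neuron markers rose alongside DCC: of 10, 5 rose and 1 fell on VN, 7 rose on VNP2 against Matrigel and 3 rose on VNP2 against VN, with summed levels of 829 to 861 TPM, 920 to 972 TPM and 998 to 1025 TPM. TUBB3 made up most of these sums, at 548 ± 21, 551 ± 39 and 569 ± 14 TPM. The part of these cell types in the netrin results was not tested.

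No test called 25 of the guidance genes. Of these, 10 were semaphorins, 6 plexins, 3 Eph receptors, 2 ephrins and 4 netrin receptors. PLXNB2, a receptor of class 4 semaphorins, had log2 fold changes of -0.15, -0.08 and 0.066 in the 3 comparisons, with 95% intervals of -0.26 to -0.032, -0.19 to 0.035 and -0.036 to 0.17. SEMA4D, a class 4 semaphorin that binds PLXNB1, had intervals of -0.16 to 0.13, -0.30 to -0.019 and -0.27 to -0.017. By contrast, the intervals were wide for scarce genes: that of PLXNB3 ran from -1.81 to 0.30 on VN against Matrigel, where Matrigel replicate 2 had 89 counts and replicate 3 had 27, and that of SEMA3G ran from -1.73 to -0.083 on VNP2 against VN. The SEMA3G and PLXNB3 intervals do not exclude a change of 1.5-fold.

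Other guidance genes and the cytoplasmic proteins that carry the signal were counted from lists. Of 21 further ligands, receptors and cell adhesion molecules of these systems, 19 were tested, and 6 rose and 2 fell on VN, 7 rose and 3 fell on VNP2 against Matrigel, and 2 rose and 1 fell on VNP2 against VN. In that order 8, 10 and 3 of the 19 were called, against 15.3%, 16.6% and 5.1% of all genes tested. Their median log2 fold changes were 0.07, 0.25 and 0.12, against 0.0044, 0.0024 and 0.00073 for all genes tested. Those called at 1.5-fold or more are named. NTNG1, a membrane-anchored netrin G, fell by 0.77 on the log2 scale on VN against Matrigel, while its binding partner LRRC4C rose by 0.65 on VN and 0.77 on VNP2. CHL1, an adhesion molecule of the L1 family, fell by 0.65 on VN. The Eph receptor EPHA6 rose by 0.85 on VN and 1.11 on VNP2, EPHA8 rose by 0.96 on VNP2, and FLRT2, a ligand of the UNC5 receptors, rose by 0.69 on VNP2. Both EPHA6 and EPHA8 were below 2 TPM in every library.

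Of 41 cytoplasmic effectors, 4 rose and 8 fell on VN, 9 rose and 6 fell on VNP2 against Matrigel, and 5 rose and none fell on VNP2 against VN, by edgeR's quasi-likelihood test. Their median log2 fold changes were -0.05, 0.06 and 0.06. RRAS, the small GTPase on which plexins act, went from 17.8 ± 0.83 TPM on Matrigel to 9.59 ± 0.3 on VN and 8.92 ± 0.89 on VNP2, a fall by 0.98 and by 1.07 on the log2 scale. VAV3, an exchange factor of the family used by Eph receptors, had the pattern of EPHA3, at 5.51 ± 0.0019, 5.46 ± 0.34 and 10.8 ± 0.45 TPM, and rose on VNP2 by 0.91 against Matrigel and by 1.004 against VN. The actin-binding ABLIM3 fell by 0.93 on VN and by 1.07 on VNP2, at below 1 TPM in every library. MICAL2, of the MICAL enzymes that take actin filaments apart, fell by 0.62 on VN and by 0.66 on VNP2. Against the same background of 15.3%, 16.6% and 5.1% of all genes, 12, 15 and 5 of the 41 effectors were called.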

How the data were processed

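RNA-seq libraries of H9-derived OPCs on Matrigel (2), VN (3) and VNP2 (3) were used, grouped by GEO's labels. The authors trimmed adapters with Trim Galore and quantified GENCODE v32 transcripts of GRCh38.p13 with Salmon (versions not given in the sources used here). The deposited estimated counts per transcript are neither whole nor normalized, and the deposited TPM values and effective lengths are Salmon's. The authors also deposited a signal of normalized counts per gene from DESeq2 1.27.12, which was used for checks and 1 alternative.

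Here, transcripts were matched by identifier to GENCODE v29 (205225 of 226608, holding 98.8 to 98.9% of the estimated counts), summed per gene and rounded, with offsets for average transcript length. TPM values were summed per gene. After filterByExpr (minimum count 10, minimum total 15), edgeR 4.0.16 (R 4.3.3) was used for 1 quasi-likelihood fit of all 8 libraries, TMM-normalized and without a replicate block. Tests were two-sided, with Benjamini-Hochberg adjustment over 18201 genes in each comparison and a call at an adjusted p under 0.05. Errors of log2 fold changes are SE, calculated from the log2 fold change and the F statistic of its test. Intervals are 95% and were built on these SE, so both are approximate. Normalized counts are scaled to equal effective library size. Genes with few counts carry more counting error.

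The members and lists were chosen with earlier results of these data known. Per-library values are given for called genes with a mean of at least 100 counts, at most the 10 with the largest change per pair, and for their ligands or receptors, and genes outside the 57 are named at a called change of 1.5-fold. Other genes are said to be named after their values were seen. Alternatives were RLE normalization, no length offset, no filter, a minimum of 50 counts per library, a block for replicate number, a fit of each pair alone, DESeq2 1.42.0, limma 3.58.1 on log2 of the authors' normalized counts or of TPM (pseudocount 1), and omission of each library. On simulated data (17960 genes, VN against Matrigel), 199 of 200 changed genes and 7 unchanged genes were called. Power for smaller changes, for scarcer genes and for genes with a larger spread was not tested.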

Additional observations from a re-analysis of the deposited data

How the results depend on the processing

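The number of guidance genes called was 21 on VN against Matrigel, 26 on VNP2 against Matrigel, 13 on VNP2 against VN and 29 across the 3 coatings. With each library left out in turn, these counts ranged from 12 to 26, 18 to 28, 10 to 15 and 20 to 35. The lowest of the first range, 12, was obtained without Matrigel replicate 3, which leaves Matrigel with 1 library that is assumed to vary like the other groups. Under the other settings the counts ranged from 19 to 24, 25 to 30, 10 to 16 and 28 to 32. With a replicate block they were 24, 25, 14 and 28. The shares of all genes called in these alternative fits are not given, so such ranges cannot be told apart from a shift over all genes. Same-numbered libraries did not deviate together (correlations of -0.112 to 0.14 over 12996 genes), so the numbers were not taken to pair the libraries, and the block cost the calls of EPHB2 on VN (adjusted p = 0.0551) and of EFNA2 (0.0563), EFNA3 (0.0771) and EFNA5 (0.0724) on VNP2 against Matrigel. No called value changed sign. Of 1368 values with a library left out, 1290 kept their side of the threshold, 64 lost a call and 14 gained one, and of 1521 values under other settings 1461 kept theirs, 22 lost a call and 38 gained one. Of 2889 values in all, 73 that were called in neither fit changed sign. The filter of at least 50 counts in every library left 51 of the genes. Low counts, and in PLXNB3 also the spread between the Matrigel libraries, limit what can be said of scarce genes such as SEMA3G, PLXNB3, EPHA5 and EFNA1.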
